A study of Mus musculus with 8 samples.

Results

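The genes described here are 8 transcription factors that direct the development, identity or activation of microglia and other macrophages: Spi1, Irf8, Irf5, Sall1, Maf, Mef2c, Runx1 and Ikzf1. They were taken by gene symbol from the 55401 genes measured, and each symbol matched 1 gene. RNA sequencing covered 4 hypothalami of pups given PLX3397 and 4 of pups given vehicle, each group with 2 females and 2 males. Both groups were dosed by gavage on postnatal days 9 to 15 and sampled on day 19, 4 days after the last dose. PLX3397 inhibits the receptor CSF1R, on which microglia depend for survival, and it is also known to block the related kinases KIT and FLT3. The labels give the sample source only as brain. Housing and diet are listed alike for both groups, and no strain or genotype is stated there. The series asks what microglia contribute to hypothalamic development after birth, in particular to the AgRP neurons that drive feeding.

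Microglia arise from yolk sac progenitors, and their fate rests on a small set of DNA-binding proteins. PU.1, the product of Spi1, opens the enhancers of macrophage genes, and IRF8 binds beside it at composite sites. RUNX1 and Ikaros, the product of Ikzf1, act in blood progenitors and remain in microglia. SALL1 and MEF2C belong to the programme that sets microglia of the adult brain apart from other macrophages, and c-MAF acts in tissue macrophages. IRF5 acts downstream of Toll-like receptors and drives inflammatory genes. Several of these genes are also read in other brain cells, Mef2c in neurons and Maf in interneurons among them.

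Promoter sequences are shown for 4 members, chosen because Irf8 and Irf5 were both several-fold lower in PLX3397 hypothalami, Mef2c overlapped between the groups, and Runx1 holds matches to its own family's motif. They come from RefSeq (build GRCm38.p6), run from 250 bases before to 50 bases after the start site in the direction of the gene, and are printed in lower case with motif matches in capitals. Of the 8 members 6 matched this source, with 13 windows; Spi1 and Maf did not.
Irf8, chr8:120736108-120736407, plus strand: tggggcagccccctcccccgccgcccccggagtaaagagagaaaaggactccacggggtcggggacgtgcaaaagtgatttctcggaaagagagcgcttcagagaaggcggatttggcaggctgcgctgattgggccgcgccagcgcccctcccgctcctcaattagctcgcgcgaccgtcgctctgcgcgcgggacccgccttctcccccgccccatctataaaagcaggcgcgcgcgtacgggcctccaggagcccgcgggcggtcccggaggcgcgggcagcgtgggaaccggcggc
Irf5, chr6:29526375-29526674, plus strand: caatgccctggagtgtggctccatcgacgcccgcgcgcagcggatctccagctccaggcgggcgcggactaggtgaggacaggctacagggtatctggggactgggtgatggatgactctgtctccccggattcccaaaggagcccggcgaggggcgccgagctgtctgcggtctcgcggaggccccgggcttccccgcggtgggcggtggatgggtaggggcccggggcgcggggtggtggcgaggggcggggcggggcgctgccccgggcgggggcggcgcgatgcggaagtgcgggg
Runx1, chr16:92826025-92826324, minus strand: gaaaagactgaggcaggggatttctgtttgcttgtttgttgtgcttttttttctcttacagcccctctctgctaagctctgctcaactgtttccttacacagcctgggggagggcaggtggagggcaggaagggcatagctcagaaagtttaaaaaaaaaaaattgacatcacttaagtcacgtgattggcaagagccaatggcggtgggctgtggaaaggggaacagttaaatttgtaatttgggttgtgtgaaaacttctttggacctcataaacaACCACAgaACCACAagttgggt
Mef2c, chr13:83503784-83504083, plus strand: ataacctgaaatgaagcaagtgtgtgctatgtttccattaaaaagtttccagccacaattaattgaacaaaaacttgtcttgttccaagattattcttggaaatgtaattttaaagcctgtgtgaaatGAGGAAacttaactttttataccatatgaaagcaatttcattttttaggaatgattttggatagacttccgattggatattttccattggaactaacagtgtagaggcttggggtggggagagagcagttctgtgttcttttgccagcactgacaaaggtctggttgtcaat

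The windows of Irf8 and Irf5 were rich in G and C, with 70% and 74.7% of bases and 38 and 35 CpG dinucleotides. Those of Runx1 and Mef2c held 45% and 35.7%, with 2 CpG and 1 CpG. This holds for the printed windows only: a second Runx1 window held 69% with 35 CpG, and a second Irf8 window 54.7% with 8 CpG. For these sequences 3 motifs were searched on both strands: the PU box GAGGAA bound by PU.1 (in 28.3% of all 32851 RefSeq windows of 300 bases), the RUNX core TGTGGT (16.8%) and the MAF core TGCTGA (19.5%). None of these motifs overlaps another in the windows shown. The Runx1 window held the RUNX core on the opposite strand starting 28 and 36 bases after the start site, and the Mef2c window held a PU box 122 bases before it. The printed windows of Irf8 and Irf5 held none of the 3 motifs. Of the members' other windows, a second Runx1 window and a second Mef2c window held a PU box, and a second Irf8 window and the last Mef2c window held a MAF core. The Sall1 and Ikzf1 windows held no match to these letters. A match of 6 bases is a description of the letters and not a binding site.

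Total counts were 55900335 to 67487391 in PLX3397 libraries and 54115300 to 60001808 in Vehicle libraries, and levels are given as counts per 1000000 of that total (CPM). The upper limit that a count of 0 leaves, 3 counts, is worth 0.0445 to 0.0554 CPM. These limits cover counting error only. The hypothalamic peptide genes Pmch and Hcrt reached 250 to 321 and 18.6 to 57.5 CPM in PLX3397 libraries, against 223 to 246 and 22.5 to 46.4 CPM in Vehicle libraries. One library stood apart: summed pituitary hormone transcripts were 28.4 to 38.3 CPM in PLX3397 libraries, against 27.2 to 4075 CPM in Vehicle libraries, the highest being Vehicle F1. PLX3397 M2 had the lowest sum of microglial markers, 34.3 CPM. Mitochondrially encoded genes took 4.87 to 5.36% of counts in PLX3397 and 4.51 to 4.88% in Vehicle libraries, and their part in the results below was not tested.

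Spi1, Irf8, Irf5, Runx1 and Ikzf1 stood at 10.9 to 29.0% of their Vehicle means in PLX3397 hypothalami, Sall1 at 62.8% and Maf at 67.8%. Mef2c stood at 89.6% and overlapped between the groups. In each of the other 7 genes every PLX3397 library lay below every Vehicle library. Fewer cells of a type and less RNA per cell cannot be told apart in whole tissue, for any of these genes. The test across genes, edgeR's quasi-likelihood F-test with sex as a covariate and Benjamini-Hochberg adjustment, took the 16894 genes with a mean of at least 0.5 FPKM (fragments per kilobase, scaled to library size), which 4 members reached. Of these, Sall1 and Maf fell and 0 rose at an adjusted p under 0.05; 0 were higher at an unadjusted p under 0.05 or by DESeq2. Over all tested genes 1.83% were called lower and 0.308% higher, and 7.04% were lower with no overlap between the groups. Irf8, Irf5, Runx1 and Ikzf1 lay under the minimum. They were compared by a two-sided exact permutation test of the mean CPM, whose smallest possible p with 4 against 4 libraries is 0.0286, and each reached it. Among the 4787 genes under the FPKM minimum with a mean count of at least 10, 5.89% were lower with no overlap.

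**Figure D1:**
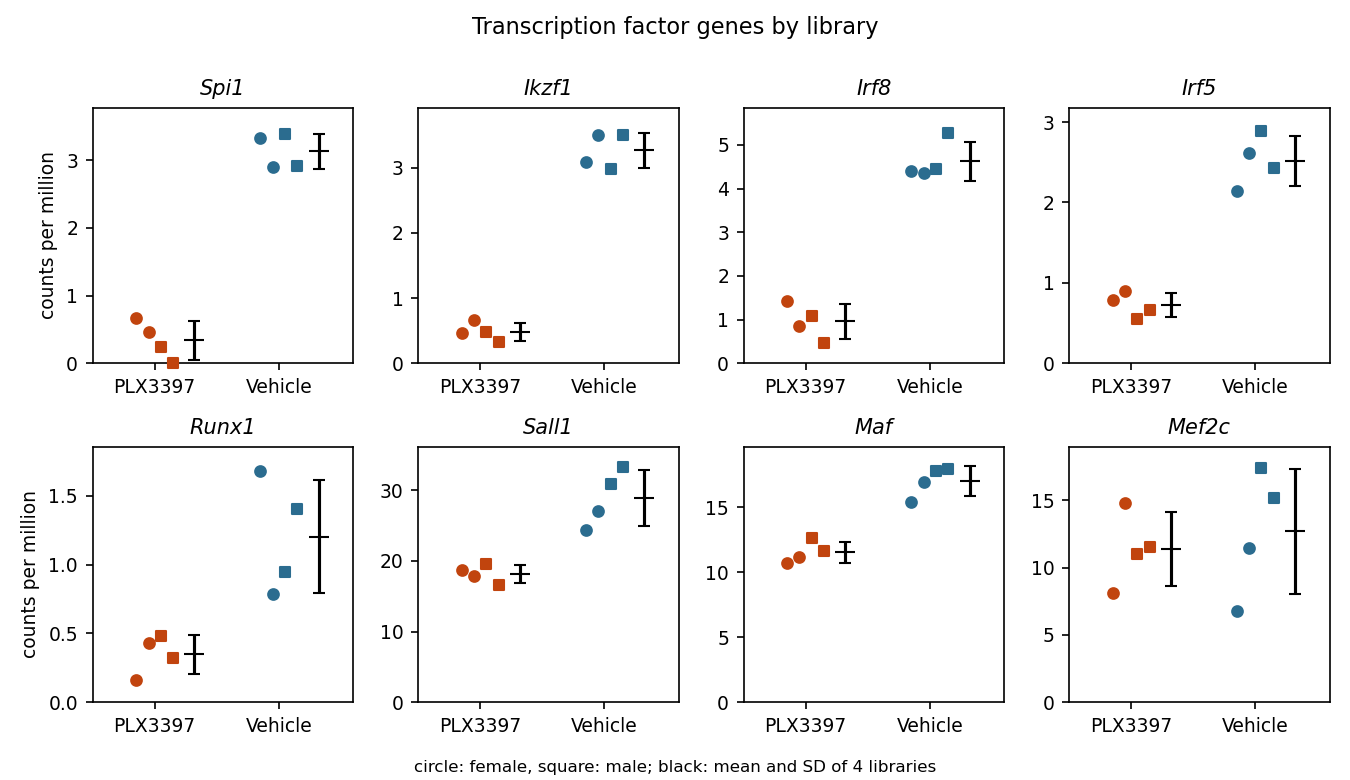
Level of each factor in CPM (vertical axis, from 0, scaled per panel) in the 4 PLX3397 and 4 Vehicle libraries, with circles for females, squares for males and black bars for the mean and SD. In every panel except that of Mef2c the PLX3397 points all lie below the Vehicle points.

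Spi1 (ENSMUSG00000002111, chromosome 2, 91082390 to 91114366, plus strand, mm10) had 45, 30, 14 and 0 counts in PLX3397 F1, F2, M1 and M2, against 193, 170, 183 and 175 in the Vehicle F1, F2, M1 and M2 libraries. That is 0.667, 0.463, 0.239 and 0 CPM in PLX3397 hypothalami, where the count of 0 allows up to 0.0537 CPM, and 3.33, 2.90, 3.38 and 2.92 CPM in Vehicle hypothalami. Relative to their mean the PLX3397 libraries spread widely and the Vehicle libraries lay close together, and the groups did not overlap. The means were 0.342 ± 0.287 CPM in PLX3397 and 3.13 ± 0.259 CPM in Vehicle (SD, n = 4 each), a ratio of 9.16. The fitted log2 fold change was −3.38 ± 0.70 (SE) and did not pass the test across genes (edgeR adjusted p = 0.0607). Spi1 met the FPKM minimum only through its Vehicle level. Without PLX3397 M2, the library at 0, the change was −2.87 with an edgeR adjusted p of 0.0165, while leaving out any other library gave 0.0787 to 0.173. DESeq2 on all 8 libraries called it (−3.51, adjusted p = 3.94e-06) and limma-voom did not (−3.57, adjusted p = 0.0871). Of 17 settings other than leaving out 1 library, these among them, 6 called it.

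Irf8 (ENSMUSG00000041515, chromosome 8, 120736358 to 120756694, plus strand), which works with PU.1 and is needed for microglia to form normally, had 1.42, 0.864, 1.09 and 0.465 CPM in the libraries PLX3397 F1, F2, M1 and M2. Vehicle libraries, in that order, had 4.41, 4.36, 4.45 and 5.28 CPM. The groups were well apart, with the lowest PLX3397 value in M2 and the highest Vehicle value in M2. The means were 0.961 ± 0.402 CPM in PLX3397 and 4.62 ± 0.441 CPM in Vehicle (SD, n = 4 each; 4.81-fold lower; exact permutation p = 0.0286). With the minimum set at a mean of 0.1 FPKM, where 1.27% of 22423 genes were called lower, Irf8 fell (log2 fold change −2.27 ± 0.32, edgeR adjusted p = 0.0201). The call was lost without PLX3397 F2 (adjusted p = 0.0812), PLX3397 M1 (0.0659), Vehicle F2 (0.0637), Vehicle M1 (0.0720) or Vehicle M2 (0.0724), with log2 fold changes of −2.15 to −2.41 in those fits.

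Ikzf1 (ENSMUSG00000018654, chromosome 11, 11685003 to 11772926, plus strand), the zinc finger factor Ikaros of the blood lineages, had 0.459, 0.664, 0.478 and 0.322 CPM in the libraries PLX3397 F1, F2, M1 and M2. Vehicle libraries, in that order, had 3.09, 3.50, 2.98 and 3.50 CPM. Both groups were tight, and the highest PLX3397 value, in F2, lay far below the lowest Vehicle value, in M1. The means were 0.481 ± 0.140 CPM in PLX3397 and 3.27 ± 0.274 CPM in Vehicle (SD, n = 4 each; 6.80-fold lower; exact permutation p = 0.0286). In the fit down to 0.1 FPKM, a level that Ikzf1 reached only in Vehicle libraries, it fell by 2.76 ± 0.23 in log2 units (edgeR adjusted p = 0.00514), and it kept its call whichever of the 8 libraries was left out (adjusted p of 0.0105 to 0.0264).

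Runx1 (ENSMUSG00000022952, chromosome 16, 92601466 to 92826149, minus strand), the runt factor of definitive blood formation, had the lowest FPKM of the members in both groups. It had 11, 28, 28 and 18 counts in the PLX3397 libraries F1, F2, M1 and M2, or 0.163, 0.432, 0.478 and 0.322 CPM. In Vehicle F1, F2, M1 and M2 it had 97, 46, 51 and 84 counts, or 1.68, 0.786, 0.942 and 1.40 CPM. The groups did not overlap, and Vehicle F2 came closest to the PLX3397 libraries, of which F1 was the lowest. The means were 0.349 ± 0.140 CPM in PLX3397 and 1.20 ± 0.410 CPM in Vehicle (SD, n = 4 each; exact permutation p = 0.0286). With no minimum, where 0.799% of 32782 genes were called lower, its log2 fold change was −1.77 ± 0.41 and did not pass (edgeR adjusted p = 0.122), whereas Irf8, Irf5 and Ikzf1 passed. DESeq2 with no minimum called Runx1 (−1.78, DESeq2 adjusted p = 0.00657), and edgeR with its own filter did not (edgeR adjusted p = 0.0995).

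Irf5 (ENSMUSG00000029771, chromosome 6, 29526625 to 29541871, plus strand) had 0.785, 0.895, 0.546 and 0.662 CPM in the libraries PLX3397 F1, F2, M1 and M2. Vehicle libraries, in that order, had 2.14, 2.61, 2.88 and 2.43 CPM. The groups did not overlap, and both PLX3397 females lay above both PLX3397 males. The means were 0.722 ± 0.151 CPM in PLX3397 and 2.52 ± 0.311 CPM in Vehicle (SD, n = 4 each; 3.49-fold lower; exact permutation p = 0.0286). In the fit down to 0.1 FPKM it fell by 1.79 ± 0.22 in log2 units (edgeR adjusted p = 0.0130). Without Vehicle F2 the adjusted p was 0.0528 and without Vehicle M2 0.0551, with changes of −1.80 and −1.79. Its span overlaps Tnpo3, a nuclear import receptor gene on the opposite strand with mean counts of 5172.5 in PLX3397 and 4687.5 in Vehicle libraries. Since strand is not given, reads of the pair cannot be told apart with certainty, and the counts of the pair summed, nearly all of them from Tnpo3, gave a log2 fold change of 0.02. The genes whose spans overlap Irf8, Maf, Runx1 or Ikzf1 had 0 counts in all libraries.

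Sall1 (ENSMUSG00000031665, chromosome 8, 89027235 to 89044162, minus strand) encodes a zinc finger repressor used in the adult brain as a microglia-restricted factor. It had 18.7, 17.9, 19.5 and 16.6 CPM in PLX3397 F1, F2, M1 and M2, against 24.4, 27.0, 30.9 and 33.3 CPM in Vehicle F1, F2, M1 and M2. The PLX3397 libraries were tight and all lay below the lowest Vehicle library, while both Vehicle males were above both Vehicle females. The means were 18.2 ± 1.24 CPM in PLX3397 and 28.9 ± 3.98 CPM in Vehicle (SD, n = 4 each). Sall1 fell by 0.65 ± 0.10 in log2 units (edgeR adjusted p = 0.0218). The call was lost without PLX3397 F2 (adjusted p = 0.0683), PLX3397 M1 (0.0784), Vehicle F2 (0.0724), Vehicle M1 (0.0731) or Vehicle M2 (0.0645), with log2 fold changes of −0.59 to −0.67 in those fits.

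Maf (ENSMUSG00000055435, chromosome 8, 115682942 to 115707794, minus strand), the large MAF factor of tissue macrophages, had 10.7, 11.2, 12.6 and 11.6 CPM in the libraries PLX3397 F1, F2, M1 and M2. Vehicle libraries, in that order, had 15.4, 16.9, 17.8 and 17.97 CPM. The highest PLX3397 value lay below the lowest Vehicle value. The means were 11.5 ± 0.818 CPM in PLX3397 and 17.0 ± 1.16 CPM in Vehicle (SD, n = 4 each), and Maf fell by 0.55 ± 0.07 in log2 units (edgeR adjusted p = 0.00927). It kept its call at the minimum of 0.5 FPKM whichever library was left out, but lost it in the fit down to 0.1 FPKM without Vehicle M1 (edgeR adjusted p = 0.0511) or Vehicle M2 (0.0565). With Vehicle F1, the library rich in pituitary transcripts, and PLX3397 M2 both left out the change was −0.56 with an adjusted p of 0.0703, while that of Sall1 was −0.64 (0.0498) and that of Spi1 −2.94 (0.0585).

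Mef2c (ENSMUSG00000005583, chromosome 13, 83504034 to 83667078, plus strand), a MADS-box factor of microglia, neurons and muscle, had 8.12, 14.8, 10.99 and 11.6 CPM in the libraries PLX3397 F1, F2, M1 and M2. Vehicle libraries, in that order, had 6.75, 11.4, 17.4 and 15.2 CPM. The groups overlapped, the lowest value of each group lay in F1, and no library was far from the other group's range. The means were 11.4 ± 2.74 CPM in PLX3397 and 12.7 ± 4.65 CPM in Vehicle (SD, n = 4 each). The log2 fold change was −0.09 ± 0.28 and did not pass the test (edgeR adjusted p = 0.909), and it was 0.03 without PLX3397 M1 or without Vehicle M1.

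A list of 20 microglial markers gives the scale: edgeR called 16 lower and 0 higher, against 1.83% and 0.308% of all tested genes. At an unadjusted edgeR p under 0.05, 19 were lower and 0 higher, and DESeq2 called 18 lower and 0 higher. The markers had a median log2 fold change of −3.91, against −0.0025 over all tested genes. The summed level of the markers was 34.3 to 72.4 CPM in PLX3397 libraries, against 416 to 432 CPM in Vehicle libraries, 13.1% of the Vehicle mean. Single markers stood between 0.995% (the receptor Gpr34) and 126% (Olfml3) of their Vehicle mean, with a median of 7.05%. Of the 20 markers, 15 stood at a lower percentage than Spi1 or Ikzf1, 16 than Irf8, 17 than Irf5 or Runx1, and 19 than Sall1, Maf or Mef2c. Among 10 markers of the macrophages at the brain's borders, 3 were tested and all 3 fell (Mrc1, Cbr2 and Stab1), against 1.83% of all tested genes. The 10 markers summed to 6.65 to 10.3 CPM in PLX3397 and 30.6 to 42.5 CPM in Vehicle libraries. The 6 with a Vehicle mean of at least 1 CPM stood at 7.94% (the mannose receptor Mrc1) to 39.0% (the haemoglobin scavenger receptor Cd163), with a median of 26.3%, and Cd209f and Clec12a were at 0 in all 4 PLX3397 libraries and in 1 Vehicle library each.

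**Figure D2:**
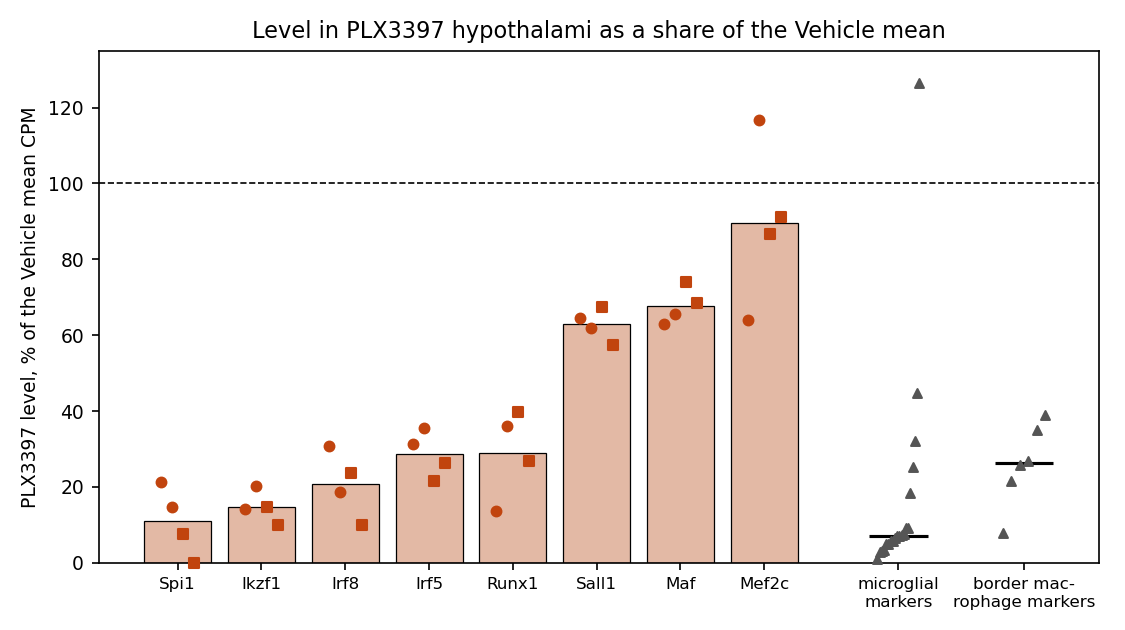
Level in PLX3397 hypothalami as a percentage of the Vehicle mean CPM (vertical axis, from 0). Bars and points give the mean and the 4 PLX3397 libraries of each factor (circles females, squares males), triangles single markers with a Vehicle mean of at least 1 CPM, and black lines their medians. Spi1 to Runx1 stand at 10.9 to 29.0%, Sall1 and Maf at 62.8 and 67.8%, Mef2c at 89.6%, and the microglial markers have a median of 7.05%.

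Markers of another lineage moved as well. The 12 oligodendrocyte lineage markers summed to 2222 to 4839 CPM in PLX3397 libraries, against 6781 to 10009 CPM in Vehicle libraries. Of the 12, 7 were called lower and all 12 were lower with no overlap, against 1.83% and 7.04% of all tested genes. The sum of the 12 was 42.5% of the Vehicle mean. The part of that lineage in the levels of Sall1, Maf or any other member was not tested. Neuron markers summed to 6507 to 6929 CPM in PLX3397 and 6187 to 6526 CPM in Vehicle libraries, with 1 of 12 called higher by edgeR, 1 lower and 6 higher at an unadjusted p under 0.05, and 0 lower and 4 higher by DESeq2. Without overlap between the groups, 6 of the 12 were higher and 1 was lower, the latter against 7.04% of all tested genes. Astrocyte markers summed to 3379 to 3614 CPM in PLX3397 and 3224 to 3776 CPM in Vehicle libraries, with 1 of 8 lower and 1 higher at an unadjusted p under 0.05, none of them at an adjusted p under 0.05 by edgeR and 1 lower by DESeq2. Endothelial markers summed to 311 to 341 CPM in PLX3397 and 276 to 336 CPM in Vehicle libraries, with 1 of 10 called higher by edgeR, 2 lower and 3 higher at an unadjusted p under 0.05, and 0 lower and 2 higher by DESeq2. Mural and fibroblast markers summed to 411 to 526 CPM in PLX3397 and 347 to 454 CPM in Vehicle libraries, with 0 of 10 called by edgeR, 2 lower and 3 higher at an unadjusted p under 0.05, and 1 lower and 3 higher by DESeq2.

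Markers of white blood cells, which also use these factors, summed to less than the microglial markers in every library. The highest monocyte and neutrophil sum, in PLX3397 F2, was 23.7 CPM, where microglial markers summed to 60.5 CPM. The 12 monocyte and neutrophil markers summed to 6.60 to 23.7 CPM in PLX3397 and 10.9 to 20.6 CPM in Vehicle libraries, with Elane, neutrophil elastase, at 0 in all libraries. Of the 3 tested, edgeR called 0, while 1 (Ngp) was lower at an unadjusted p under 0.05 and by DESeq2. Ccr2, the receptor of inflammatory monocytes, averaged 0.265 CPM in PLX3397 and 0.499 CPM in Vehicle libraries. The 12 lymphocyte markers summed to 5.85 to 7.18 CPM in PLX3397 and 4.85 to 7.39 CPM in Vehicle libraries, and 0 of 2 tested were called by edgeR, at an unadjusted p under 0.05 or by DESeq2. Cd8a was at 0 in all libraries, Cd3d and Ms4a1 were at 0 in all 4 PLX3397 and 3 of 4 Vehicle libraries, and Nkg7 was at 0 in 3 of 4 PLX3397 and all 4 Vehicle libraries. Red cell genes summed to 27.8 to 61.1 CPM in PLX3397 and 32.5 to 201 CPM in Vehicle libraries, 31.1% of the Vehicle mean. Of 4 tested, all 4 were lower at an unadjusted p under 0.05, and 0 were called by edgeR or DESeq2. What blood cells contribute to the members was not tested.

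Levels of different genes were compared per length, in FPKM. In PLX3397 hypothalami the order was Sall1 (3.03 ± 0.204), Maf (1.23 ± 0.087), Mef2c (0.631 ± 0.151), Irf5 (0.216 ± 0.045), Irf8 (0.117 ± 0.049), Spi1 (0.108 ± 0.092), Ikzf1 (0.072 ± 0.021) and Runx1 (0.025 ± 0.010 FPKM; SD, n = 4). In Vehicle hypothalami it was Sall1 (4.81 ± 0.656), Maf (1.81 ± 0.122), Spi1 (1.01 ± 0.085), Irf5 (0.755 ± 0.094), Mef2c (0.704 ± 0.258), Irf8 (0.571 ± 0.054), Ikzf1 (0.494 ± 0.041) and Runx1 (0.087 ± 0.030 FPKM; SD, n = 4). Sall1 was the highest and Runx1 the lowest in both groups, and Spi1 stood below Irf5 and Irf8 in PLX3397 and above both in Vehicle. Among neighbours in the order, mean ± SD overlapped in Vehicle for Irf5 and Mef2c, Mef2c and Irf8, and Irf8 and Ikzf1. In PLX3397 it overlapped for Irf8 and Spi1, and for Spi1 and Ikzf1. Single PLX3397 libraries of Irf5 and Irf8 also overlapped (lowest Irf5 0.163, highest Irf8 0.174 FPKM). The differences in mean level, PLX3397 minus Vehicle, were −1.78 FPKM for Sall1, −0.906 for Spi1, −0.581 for Maf, −0.540 for Irf5, −0.453 for Irf8, −0.422 for Ikzf1, −0.0727 for Mef2c and −0.0613 for Runx1. Sall1 thus had the largest difference in level and Spi1 the largest ratio of the 8. The gene length behind the FPKM values differed from 3100 bases for Spi1 to 18015 bases for Mef2c, as the ratio of counts to FPKM gives it. The order rests on these lengths: in CPM, without them, Mef2c averaged 12.7 and Spi1 3.13 in Vehicle libraries.

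To set each factor beside the microglial transcripts that remained, its CPM was divided by the summed CPM of the 20 microglial markers, a measure chosen after the data had been seen. Since the change of each factor and of the markers was already known, these ratios of levels, given as percentages, are a description with no test. Spi1 made 0.921, 0.766, 0.443 and 0% of that sum in PLX3397 F1, F2, M1 and M2, against 0.795, 0.698, 0.805 and 0.675% in the Vehicle libraries F1, F2, M1 and M2. Ikzf1 stood at 0.634, 1.10, 0.886 and 0.939% in PLX3397, against 0.737, 0.842, 0.708 and 0.811% in Vehicle libraries. For both genes the groups overlapped, with PLX3397 over Vehicle ratios of 0.716 for Spi1 and 1.15 for Ikzf1. Irf8 stood at 1.69 ± 0.349% in PLX3397 and 1.10 ± 0.086% in Vehicle libraries, and Irf5 at 1.38 ± 0.423% in PLX3397 and 0.597 ± 0.076% in Vehicle libraries (SD, n = 4 each). These were higher in 4 of 4 PLX3397 libraries than in any Vehicle library. The ratios moved with the denominator. Irf8 and Irf5 had PLX3397 over Vehicle ratios of 1.55 and 2.31 with the marker sum. Divided by Tmem119 alone, a membrane protein gene and one of the 20 markers, they had 1.13 and 1.64 and the groups overlapped. Divided by P2ry12 alone, the purine receptor of microglia and another of the 20, they had 5.98 and 8.61 without overlap. P2ry12 was itself low in PLX3397 libraries: Spi1, at 45 counts in PLX3397 F1, made 97.8% of it there. Ikzf1 had 0.849 with Tmem119, where the groups overlapped, and 4.22 with P2ry12, where they did not.

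Sall1, Maf and Mef2c, whose own levels were nearer to Vehicle, had higher ratios to the marker sum in PLX3397 libraries. Sall1 made 25.8, 29.6, 36.2 and 48.4% of the marker sum in PLX3397 F1, F2, M1 and M2, against 5.81% (F1) to 7.71% (M2) in Vehicle libraries. Maf stood at 22.6 ± 8.34% in PLX3397 and 4.03 ± 0.248% in Vehicle libraries, and Mef2c at 22.4 ± 9.34% in PLX3397 and 3.002 ± 1.09% in Vehicle libraries (SD, n = 4 each). The ratios were 5.11 for Sall1, 5.62 for Maf and 7.48 for Mef2c, and the groups did not overlap. They were 3.53, 3.80 and 5.24 with Tmem119 and 19.1, 20.7 and 27.9 with P2ry12 as the denominator, also without overlap. Runx1 stood at 0.691 ± 0.325% in PLX3397 and 0.284 ± 0.096% in Vehicle libraries, with an overlap. Its ratio of 2.43 was 1.71 with Tmem119, with an overlap, and 8.31 with P2ry12, without one. How much of each factor's RNA lay in microglia was not measured.

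**Figure D3:**
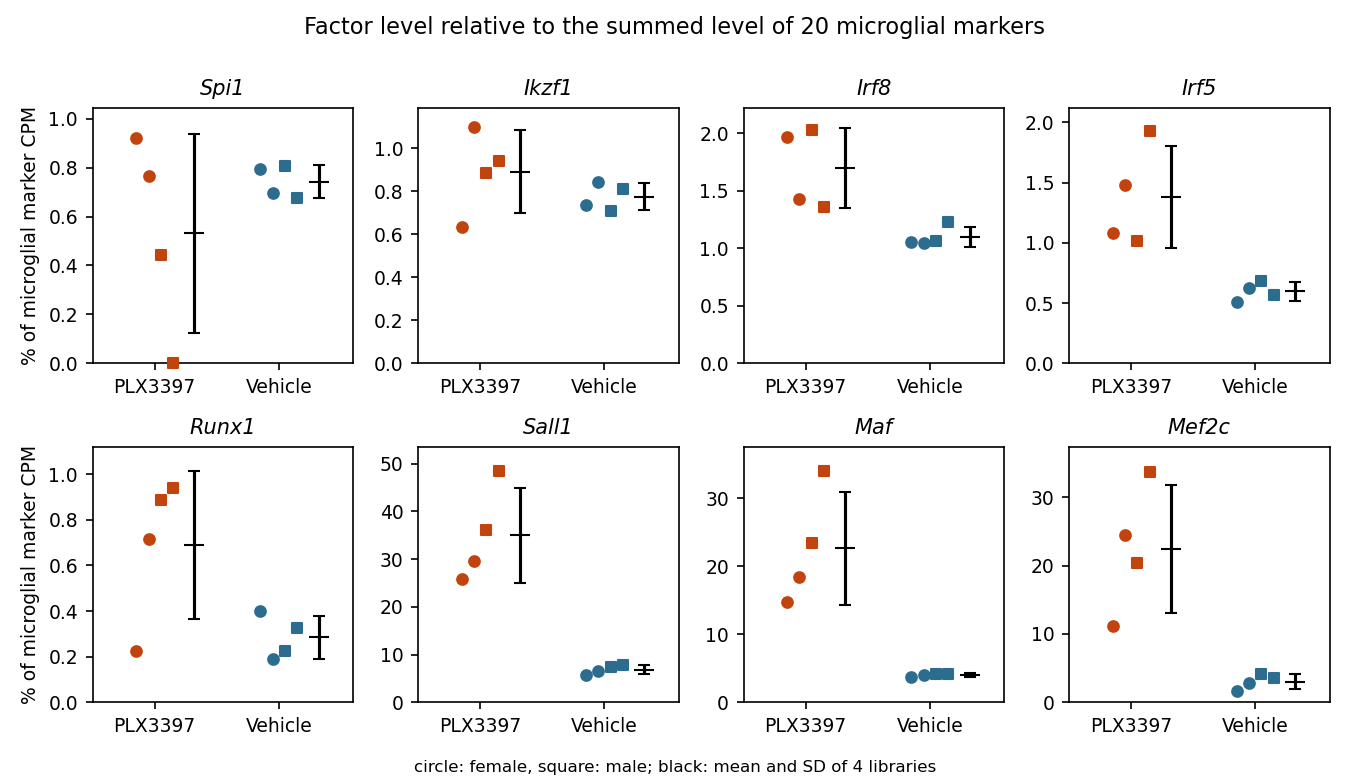
Level of each factor as a percentage of the summed CPM of 20 microglial markers (vertical axis, from 0, scaled per panel) in the 4 PLX3397 and 4 Vehicle libraries, with circles for females, squares for males and black bars for the mean and SD. The groups overlap for Spi1, Ikzf1 and Runx1, and the PLX3397 points of Sall1 lie at 25.8 to 48.4% against 5.81 to 7.71% in Vehicle.

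Of the 13 ETS family genes set beside Spi1, 10 were tested, with a median log2 fold change of −0.33. Of these 1 fell and 0 rose, against 1.83% and 0.308% of all tested genes. At an unadjusted edgeR p under 0.05, 2 were lower and 1 higher, and DESeq2 called 1 lower and 1 higher. Elf1, an ETS activator of blood and endothelial cells, fell (6.49 ± 0.929 CPM in PLX3397 and 10.3 ± 0.930 CPM in Vehicle, SD, n = 4 each; −0.66 ± 0.12, edgeR adjusted p = 0.0423), but no ETS relative was called in the fit down to 0.1 FPKM, and its adjusted p was 0.0875 to 0.135 when any library but PLX3397 F1 was left out. Fli1, of endothelial cells and microglia, had −0.33 (edgeR adjusted p = 0.495), Ets2 0.30 (0.169) and Elk3 −0.34 (0.173). Elf4, under the minimum, averaged 0.802 CPM in PLX3397 and 2.49 CPM in Vehicle libraries with no overlap. Spib and Spic, the nearest kin of PU.1, were at 0.039 and 0.015 CPM on average in PLX3397 and at 0.174 and 0 CPM in Vehicle libraries.

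Of the 7 other interferon regulatory factors 5 were tested and 0 were called by edgeR, with a median of 0.01; 1 was lower at an unadjusted p under 0.05 and 1 by DESeq2. Irf1, induced by interferon gamma, came closest (7.52 ± 0.691 CPM in PLX3397 and 10.2 ± 1.23 CPM in Vehicle, SD, n = 4 each; −0.43 ± 0.10, edgeR adjusted p = 0.0827), with no overlap. Irf2 had a log2 fold change of 0.01, Irf3 of 0.02, Irf7 of −0.17 and Irf9 of 0.19. Irf4, under the minimum, averaged 0.390 CPM in PLX3397 and 0.894 CPM in Vehicle libraries, without overlap.

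Sall2 had a log2 fold change of 0.06 (edgeR adjusted p = 0.604) and Sall3 of 0.08 (0.858), so neither other tested SALL gene passed. Maff, Mafg and Mafk, the small MAF proteins, had 0.36, 0.04 and 0.14 and did not pass. Mef2a and Mef2d, widely used MEF2 factors, had −0.01 (adjusted p = 0.960) and 0.11 (0.395). Cbfb, the shared partner of RUNX proteins, had −0.06 (0.740). Ikzf4 and Ikzf5 had −0.01 and −0.14 and did not pass. Of the tested SALL, MEF2, RUNX and IKZF relatives 0 were called by edgeR, at an unadjusted p under 0.05 or by DESeq2.

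**Figure D4:**
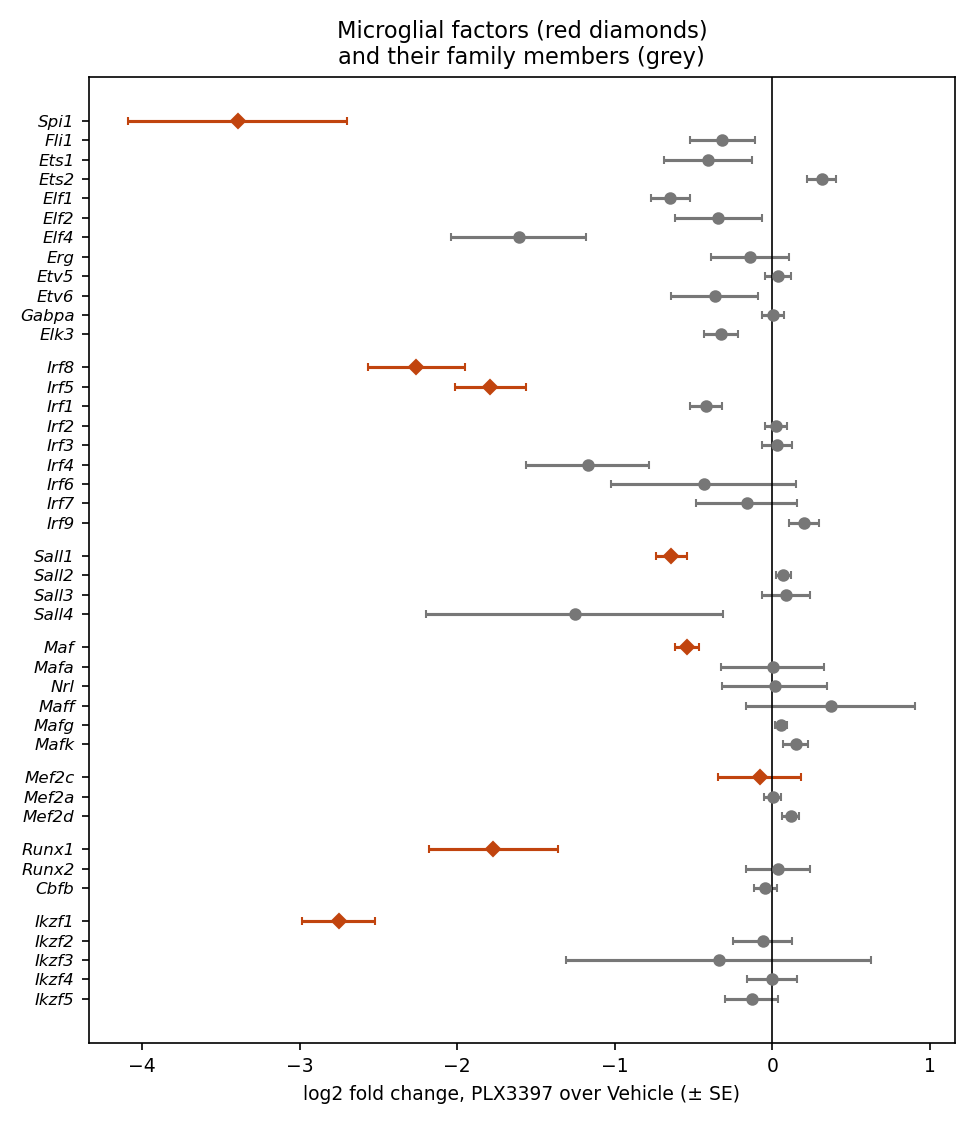
Log2 fold change, PLX3397 over Vehicle, of the 8 factors (red diamonds) and of relatives of each family with a mean count of at least 10 (grey circles), with bars for ± 1 SE, from the edgeR fit with no minimum on expression. Spi1, Ikzf1, Irf8, Irf5 and Runx1 lie between −3.39 and −1.77, left of Sall1 and Maf, while Irf2, Mef2a and Ikzf4 lie near 0.

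A wider list of 36 other factors of myeloid cells and microglia held 29 tested genes, with a median log2 fold change of −0.05. Of the list edgeR called 1 lower and 0 higher, against 1.83% and 0.308% of all tested genes. The list's count of lower calls was 0 when any library but Vehicle F1 was left out, and 1 without Vehicle F1. Among those that did not pass were Lyl1, a blood progenitor factor (0.711 ± 0.192 CPM in PLX3397 and 2.31 ± 0.832 CPM in Vehicle, SD, n = 4 each; −1.66 ± 0.35, edgeR adjusted p = 0.0637), and Tfeb, a regulator of lysosome genes (6.37 ± 1.58 CPM in PLX3397 and 13.1 ± 2.70 CPM in Vehicle; −1.04 ± 0.22, adjusted p = 0.0699). In both the groups did not overlap. Counting every tested gene of this list, 7 were lower and 1 was higher with no overlap between the groups. Of all tested genes 7.04% were lower with no overlap. DESeq2 called 6 of the list lower and 0 higher, and 7 were lower and 1 higher at an unadjusted p under 0.05.

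Of 23 co-regulators and upstream signals of the factors, 20 were tested, with a median of −0.12. Of these 2 fell and 0 rose, against 1.83% and 0.308% of all tested genes. At an unadjusted edgeR p under 0.05, 8 were lower and 1 higher, and DESeq2 called 5 lower and 0 higher. Csf1r, a target of PU.1 and the receptor that PLX3397 blocks, fell by 4.18 ± 0.43 on the log2 scale (4.65 ± 2.35 CPM in PLX3397 and 80.9 ± 3.28 CPM in Vehicle, SD, n = 4 each; edgeR adjusted p = 0.00526). Tgfbr1, a receptor for the TGF-beta that maintains Sall1 in microglia, fell by 0.86 ± 0.09 (13.5 ± 1.25 CPM in PLX3397 and 24.6 ± 1.87 CPM in Vehicle; adjusted p = 0.00544). Tgfb1, one of its ligands, had −0.86 ± 0.20 (3.19 ± 0.614 CPM in PLX3397 and 5.85 ± 1.08 CPM in Vehicle; adjusted p = 0.0913). Irak4, a kinase upstream of IRF5, had −0.74 ± 0.21 (2.20 ± 0.564 CPM in PLX3397 and 3.71 ± 0.343 CPM in Vehicle; adjusted p = 0.139).

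Within each sex, where 2 PLX3397 libraries stood against 2 Vehicle libraries, the PLX3397 means of all members but Mef2c lay below the Vehicle means, and that of Mef2c lay above it in females and below it in males. Sall1 had a log2 fold change of −0.47 ± 0.11 in females (edgeR adjusted p = 0.227) and −0.83 ± 0.11 in males (0.0214). Maf had −0.54 ± 0.10 in females (0.127) and −0.56 ± 0.10 in males (0.0563). Spi1 had −2.44 ± 0.76 in females (0.373) and −4.68 ± 0.90 in males (0.0722), and Mef2c 0.35 ± 0.34 in females (0.793) and −0.53 ± 0.34 in males (0.554). Of all tested genes 0.278% were called lower within females and 1.35% within males. The difference of the effect between the sexes, females minus males, was 0.36 ± 0.15 for Sall1 (adjusted p = 0.820), 0.02 ± 0.14 for Maf (0.990), 2.25 ± 1.15 for Spi1 (0.8291) and 0.88 ± 0.48 for Mef2c (0.836). None of the 4 passed, against 0.077% of all tested genes, and the lowest edgeR p before adjustment, that of Sall1, was 0.0536. With no minimum on expression the differences were 0.73 ± 0.57 for Irf8, 0.65 ± 0.40 for Irf5, 0.48 ± 0.44 for Ikzf1 and −0.47 ± 0.84 for Runx1, and none passed.

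For each member the 2 tested genes with the most similar profile over the 8 libraries were found by the root mean square difference of centred log2(CPM + 0.5). Nearest to Spi1 were Fgd2 (0.157) and Fcer1g, the common Fc receptor gamma chain (0.183). Nearest to Irf8 were Stab1, a scavenger receptor of macrophages (0.141), and Myrf, the myelin regulatory factor of oligodendrocytes (0.151). Irf5 was nearest to Apbb1ip (0.137) and Mpzl1 (0.140), Ikzf1 to Susd5 (0.203) and Tnfaip8l2 (0.206), and Runx1 to Dapp1 (0.206) and Ddr1 (0.243). Sall1 was nearest to Qk, an RNA-binding protein gene of glia (0.055), and Man1a (0.066), and Maf to Chadl (0.052) and Arhgap31 (0.069). The neighbours of Mef2c were Nmb and P2rx5 (0.206 and 0.207), whose values overlapped between the groups. These profiles hold the difference between the treatments as well as that among the libraries of a group. The 0.5 added exceeds the PLX3397 mean CPM of Spi1, Runx1 and Ikzf1, so their falls are compressed on this scale. Dapp1 and Ddr1 had log2 fold changes of −0.79 and −0.77, against −1.77 for Runx1 with no minimum. Susd5 and Tnfaip8l2 had −2.06 and −3.27, against −2.75 for Ikzf1 with no minimum.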

How the data were processed

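Total RNA of 8 hypothalami was depleted of ribosomal RNA and reverse transcribed from random primers, per the labels' protocols. The authors deposited whole-number read counts per gene and FPKM values for 55401 genes. Genes with no counts carry an FPKM of 0.0001. The submitters' processing notes give no roles for the tools they name, HISAT2, StringTie, DESeq2, limma and bcl2fastq 2.0, and the build is mm10. Counting tool and strandedness were not given in the sources used here.

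From the deposited counts, CPM is the count per 1000000 of the library's total. PLX3397 was compared with Vehicle in edgeR 4.0.16 under R 4.3.3 with the quasi-likelihood F-test (TMM scaling, sex as covariate, two-sided, Benjamini-Hochberg, threshold 0.05) over the 16894 genes with a mean of at least 0.5 FPKM. SE was taken as the log2 fold change's size over the root of F. The effects within each sex came from a model of 4 groups with 2 libraries each. Members under the minimum were tested by two-sided exact permutation over 70 arrangements, and fits down to 0.1 FPKM and with no minimum stand beside them. The series text speaks of 8 hypothalami, taken here as separate animals, and counts of each pair of libraries within a group differed beyond sampling noise.

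Alternatives were other minima, scalings and dispersion settings, DESeq2 1.42.0, limma 3.58.1, the replicate label as a block and leaving out libraries. The members and the 21 gene lists were chosen with earlier results of these data known. For list counts at an unadjusted p under 0.05, or higher with no overlap, no share over all tested genes is given here. Named in the text are all members, measured relatives, up to 4 genes per other list by smallest p, and 2 profile neighbours per member (no predicted-gene symbols). Some genes that the rule takes are not reported here. Olfml3, Gpr34, Cd163, Elane, Cd8a, Ccr2, Ngp, Cd209f, Clec12a, Cd3d, Ms4a1, P2ry12, Tmem119, Tnpo3, Pmch and Hcrt are named outside that rule, for a range, a check or an overlap. On simulated counts for the 16894 genes, this fit recovered 70.6% of 109 genes changed by 1 and 95.6% of 91 changed by 2 on the log2 scale, with 13 false calls.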

Additional observations from a re-analysis of the deposited data

Results flagged for a closer look

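Irf8 in Vehicle M2 stood apart from the other 3 Vehicle libraries, at 5.28 CPM against 4.36 to 4.45 CPM. It is the only 1 of 16 groups (8 genes in 2 treatments) whose extreme library lay so far from the nearest other relative to the range, with a gap of 0.896 of the range. Chance flags about 1 in 20 such groups. Without Vehicle M2 the log2 fold change of Irf8 in the fit down to 0.1 FPKM was −2.15, with an edgeR adjusted p of 0.0724.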

How the results depend on the processing

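The count of members called lower, 2 of 4 tested, became 5 with a minimum of 0.1 FPKM (7 tested). It was 5 of 8 with edgeR's own filter and with no filter, and 7 of 8 with DESeq2 and no filter. Among all genes, 310 of 16894 were lower by the main test and 285 of 22423 at 0.1 FPKM. With edgeR's own filter 324 of 22151 were lower, with no filter 262 of 32782, and with DESeq2 and no filter 809 of 32782. With Vehicle F1 and PLX3397 M2 both left out the count of members was 1, and 105 of 16894 genes were lower. Leaving out 1 library gave 1 to 3 at the main minimum and 1 to 5 at 0.1 FPKM. The other myeloid factors called lower, 1 by the main test, numbered 6 with DESeq2 with or without a filter, 2 with no sex covariate, 0 with no filter and 0 with both libraries left out, and 0 to 1 without 1 library at either minimum. Genes called in all, 362 by the main test, numbered 1097 with DESeq2 (31.2% of them higher, against 14.4%), 1107 with DESeq2 and no filter, 123 with both libraries left out, and 138 to 361 without 1 library. At 0.1 FPKM they numbered 333, 132, 131 and 203 without PLX3397 F1, F2, M1 and M2, and 208, 152, 121 and 114 without Vehicle F1, F2, M1 and M2. The cause was not tested.

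Whether the replicate labels pair the samples is not known. Deviations of same-labelled libraries correlated at −0.033 to 0.034 and those of differently labelled libraries at −0.075 to 0.037. Such values show no pairing but cannot exclude one. With the label as a block, 0 members, 0 other factors and 79 genes were called, Sall1 having an adjusted p of 0.108 and Maf of 0.0590. The 4 members under the minimum kept the smallest possible exact permutation p with FPKM, TMM-scaled CPM or log2 values in place of CPM. That p is reached whenever the groups do not overlap, and log2 values keep the order of the libraries. These settings therefore restate the lack of overlap and add no further test. The test between the sexes kept 0 calls with other minima, scalings and dispersion settings.

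The log2 fold change of Mef2c, −0.09, reversed to 0.029 without PLX3397 M1 and to 0.030 without Vehicle M1 (0.036 and 0.034 at 0.1 FPKM), and was −0.37 without PLX3397 F2, the other end of its range. The counts of Irf5 and the overlapping gene Tnpo3 summed, nearly all from Tnpo3, gave 0.024, which does not measure Irf5 alone. Relative to microglial transcripts, the PLX3397 over Vehicle ratio of Spi1 turned to 2.87 with P2ry12 as the denominator and that of Ikzf1 to 0.849 with Tmem119. Sall1, Maf and Mef2c kept ratios above 1 with the marker sum, the sum with border macrophage markers, P2ry12 and Tmem119 as denominators. In PLX3397 libraries Spi1, Runx1 and Ikzf1 had 0 to 45, 11 to 28 and 18 to 43 counts, Irf5 32 to 58 and Irf8 26 to 96. The part of depth in the spread of these genes was not tested.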
